A study of Mus musculus with 5 samples.

Results

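Ifitm1, Ifitm2 and Ifitm3 are 3 of the 23173 genes listed across 5 inDrop single-cell libraries of mouse colon. The genes were picked by name for the pattern of Ifitm1 over treatment days in squamous and columnar tumor cells, so their levels and day differences in these libraries are given as a description, with no test. The early libraries are day 1 replicates 1 and 2, and the late libraries are day 3 and day 6, each from tumors that azoxymethane (AOM), a carcinogen, and dextran sodium sulfate (DSS), an irritant of the colon lining, induced in wild-type mice. All 4 were treated with repeated cycles of irinotecan followed by 5-FU, and no untreated tumor was analysed here. The fifth library is a stroma-enriching preparation of untreated wild-type colon, dissociated in another way and with n = 1. Mice were on a C57BL/6J or a mixed background, and the sources used here do not say which library had which. The sources differ on whether days were counted from the start or the end of treatment.

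IFITM proteins are small membrane proteins that hinder the fusion of many enveloped viruses with cell membranes, and IFITM3 acts mainly in endosomes. Their genes are classical targets of interferons, which act through transcription factors on DNA elements near the start of such genes. In the intestine the family is also known as responsive to beta-catenin and as raised in colorectal tumors.

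After cells with under 500 genes or over 15% mitochondrial counts were removed, 748 to 2826 cells remained per library, from files that held 5132360 to 16904947 UMIs before this filter (unique molecular identifiers, each standing for 1 captured RNA). Libraries with a single index, read on the BGI MGI-Seq, were made for day 1 replicate 1 and for day 3, and those of day 1 replicate 2, of day 6 and of normal stroma had a dual index and were read on the NovaSeq6000, so that each index type holds 1 early and 1 late library. Where 4 values of a type follow each other, the early libraries come first (replicate 1, then 2), then day 3 and last day 6. Pairs of libraries shared 4 to 41 cell barcodes. Cells were clustered and named from marker genes, with the suffix -like because no protein was measured. RNA freed from broken cells reaches all droplets, and every treated type, stroma and immune cells included, held columnar keratin and lectin RNA: the 12 columnar markers found summed to 6623 to 10282 counts per 1000000 UMIs of the type (CPM) in neutrophil-like cells, beside 12162 to 19487 CPM in columnar-like cells. The lowest level of each gene in any named type of a library is therefore given as a reference. It limits what free RNA could add in that type only, since foreign RNA was not equal across types. In day 1 replicate 1 the columnar markers summed to 6623 CPM in neutrophil-like and to 2074 CPM in endothelial-like cells.

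The 3 genes lie within 55.9 kb of chromosome 7 in the GRCm38 build (GENCODE M21). Ifitm2 (ENSMUSG00000060591.9) lies at chr7:140954837-140955987 on the minus strand with 2 exons. Ifitm1 (ENSMUSG00000025491.14) lies at chr7:140967221-140969825 on the plus strand, with transcripts of 2 or 3 exons, and Ifitm3 (ENSMUSG00000025492.6) lies at chr7:141009586-141010770 on the minus strand with 2 exons. Ifitm5 and Ifitm6 flank them in the same block. The copies resemble each other: the best transcript alignments were 74.0% identical between Ifitm1 and Ifitm2, 76.8% between Ifitm1 and Ifitm3, and 79.0% between Ifitm2 and Ifitm3. Exact stretches of 50 bases were rarely shared, with 0 between Ifitm1 and Ifitm2, 15 between Ifitm1 and Ifitm3 (1.42% of those of Ifitm1) and 20 between Ifitm2 and Ifitm3 (3.30% of those of Ifitm2), so reads from those stretches are uncertain.

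The RefSeq promoter windows (GRCm38.p6, 250 bases before to 50 after the start) were searched on both strands for the interferon-stimulated response element (ISRE, GAAANNGAAA), known from targets of type I interferons, and for the gamma-activated site (GAS, TTCNNNGAA), known from targets of interferon gamma. The stretches with a match are shown because the windows of the 3 genes differ in these letters. Capitals mark the matches, on the strand of the gene. The Ifitm2 stretch is chr7:140955988-140956017 and the Ifitm3 stretch is chr7:141010714-141010743, both on the minus strand.
Ifitm2: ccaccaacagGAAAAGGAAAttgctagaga
Ifitm3: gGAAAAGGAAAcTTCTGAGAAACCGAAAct
Ifitm2 held 1 ISRE, upstream of its start. Ifitm3 held 2 ISRE matches just after its start with 1 GAS match between them, which overlaps the second ISRE. No match was found in the window of Ifitm1 (chr7:140967826-140968125), whose RefSeq start lies inside the GENCODE span given above. The bases before the GENCODE start of Ifitm1 were not searched. Of 32851 promoter windows, 3.44% held an ISRE match and 8.30% a GAS match.

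Across the treated tumors Ifitm3 was the most abundant of the 3 genes in squamous-like, fibroblast-like, endothelial-like and columnar-like cells. The median level of Ifitm1 over libraries ran from 70.6 CPM in enteroendocrine-like to 1361 CPM in neutrophil-like cells. UMIs from this protocol come from the 3′ ends of transcripts, so levels of different genes are not scaled by length here. Over whole libraries the 4 other family members listed were scarce, with 5 to 15 UMIs of Ifitm5, 33 to 258 of Ifitm6, 0 to 6 of Ifitm7 and 21 to 169 of Ifitm10 in the treated libraries, beside 1734 to 5404 of Ifitm1.

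**Figure D1:**
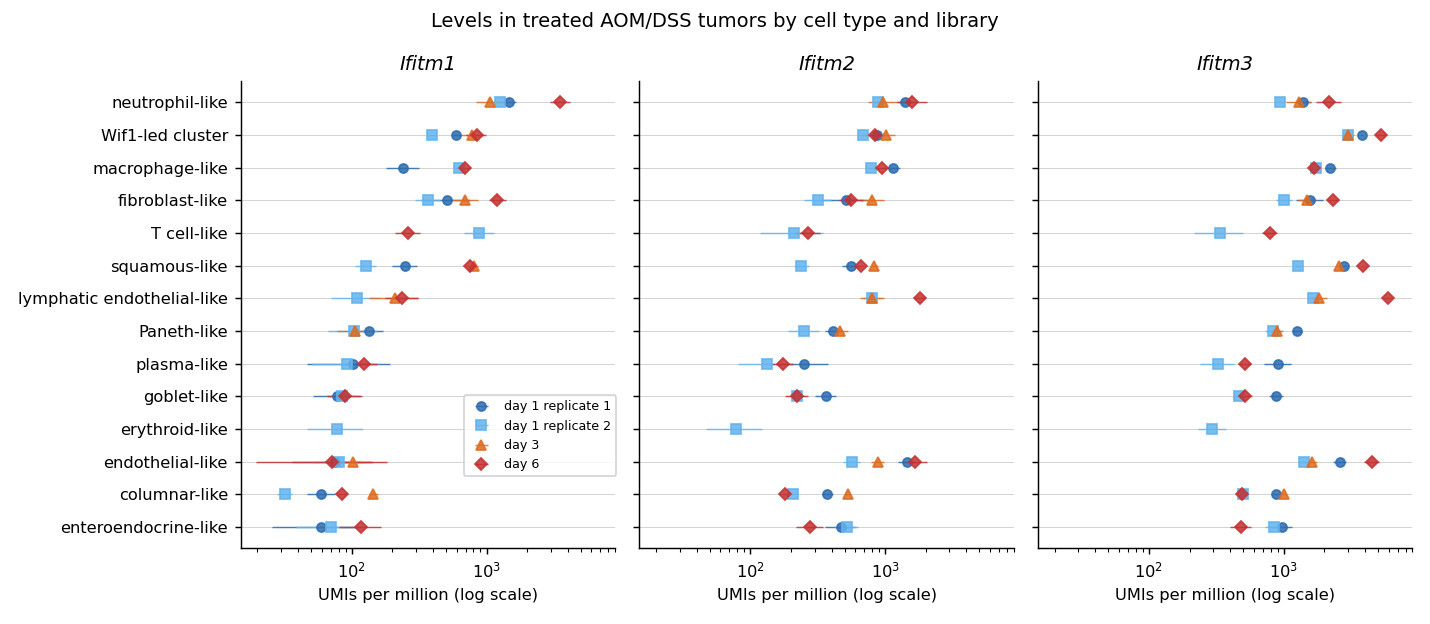
Level of each gene (CPM of the cell type, log axis) in the 4 treated libraries, by cell type. Points are libraries and lines are exact 95% Poisson intervals of the counts. For Ifitm1, the neutrophil-like cells sit between 1067 and 3495 CPM and the columnar-like cells between 31.8 and 145 CPM, while for Ifitm3 every type lies at or above 294.6 CPM.

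Neutrophil-like cells, led by the genes S100a8 and S100a9, held the highest median level of Ifitm1. It was 1470 CPM in day 1 replicate 1, 1252 in day 1 replicate 2, 1067 in day 3 and 3495 in day 6. Day 6 stood above the rest, from 24 cells, and day 3 was the lowest, from 28 cells, so early and late overlapped. Neutrophil markers in these cells summed to 24891, 21355, 7950 and 32428 CPM, with the lowest sum in day 3. Columnar markers had their highest sum in day 3, at 10282 CPM, and the part of foreign RNA in the day 3 level was not tested. Ifitm1 made up 32.1 to 48.2% of the UMIs of the 3 genes in these cells, against 1.15 to 3.94% in endothelial-like cells. Ifitm2 was 1393, 892, 967 and 1593 CPM and Ifitm3 1399, 942, 1294 and 2158 CPM in the same order of libraries. The log2 difference is the mean of log2 TMM-scaled CPM over late libraries minus that over early ones, with a pooled SD between libraries. For Ifitm1 it was 0.56 (SD 0.87, n = 4). It was -0.41 within the single index pair and 1.53 within the dual index pair, so the pairs pointed in opposite directions. Without day 6 the difference was -0.44.

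Below the neutrophil-like cells the Ifitm1 ranges of several types overlapped. Macrophage-like cells held 240, 628 and 689 CPM (day 1 replicates 1 and 2, then day 6, since day 3 had too few such cells), fibroblast-like cells 366 to 1204 CPM and squamous-like cells 127 to 814 CPM. T cell-like cells held 885 CPM in day 1 replicate 2 and 260 CPM in day 6. These neighbours in the order of medians did not differ beyond their spread between libraries. Endothelial-like cells, columnar-like cells and enteroendocrine-like cells formed the low end, at 71.8 to 103, 31.8 to 145 and 59.3 to 117 CPM.

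For Ifitm2 the order was different. Neutrophil-like (892 to 1593 CPM), endothelial-like (566 to 1652 CPM) and macrophage-like cells (787 to 1145 CPM) overlapped at the top. Endothelial-like and lymphatic endothelial-like cells were also rich in Ifitm3, at 1421 to 4507 and 1651 to 5878 CPM, with the maximum of both types in day 6. Ifitm1 in endothelial-like cells was 75.2, 80.3, 103 and 71.8 CPM, the lowest of any type in day 3 and day 6, and in lymphatic endothelial-like cells it was 109 to 237 CPM.

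Squamous-like cells, which carry the keratins and the transcription factor Trp63 of stratified epithelium, held more Ifitm1 in the late libraries. The level was 247 CPM (51 cells) in day 1 replicate 1, 127 CPM (188 cells) in day 1 replicate 2, 814 CPM (279 cells) in day 3 and 755 CPM (729 cells) in day 6. Both late libraries lay above both early ones, as did 16.3% of the 9773 genes tested in these cells. The log2 difference was 2.28 (SD 0.43, n = 4), a fold of 4.87, with 1.97 within the single index pair and 2.60 within the dual index pair. In day 1 replicate 2, 29.8% of the Ifitm1 UMIs of squamous-like cells came from 1 cell.

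Ifitm2 and Ifitm3 were also higher late in squamous-like cells, by less. Ifitm2 was 554 and 239 CPM early and 833 and 663 CPM late, a log2 difference of 1.17 (SD 0.59, n = 4). Ifitm3 was 2786 and 1281 CPM early and 2581 and 3861 CPM late, so that on this scale day 3 lay below day 1 replicate 1. After TMM scaling the log2 difference of Ifitm3 was 0.89 (SD 0.56, n = 4), of which 0.14 within the single index pair and 1.63 within the dual index pair.

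The share of squamous-like cells with an Ifitm1 UMI followed the level. Thinned to 1000 UMIs per cell, it was 25.5% (exact binomial interval 14.3 to 39.6) in day 1 replicate 1, 5.32% (2.58 to 9.56) in day 1 replicate 2, 43.0% (37.1 to 49.0) in day 3 and 35.7% (32.2 to 39.4) in day 6. Unthinned it was 51.0, 17.6, 73.5 and 71.3%, at median depths of 5032, 2532.5, 3217 and 5654 UMIs. The endothelial-like cells, with little Ifitm1, showed 16.7, 6.45, 12.1 and 14.3% after thinning, at median depths of 5949.5, 4086.5, 4165.5 and 1906 UMIs. Those of day 1 replicate 1 and day 6 came from 12 and 14 endothelial-like cells. In day 1 replicate 2 the squamous-like share lay within the interval of the endothelial-like share (1.79 to 15.7, 62 cells). By CPM, squamous-like cells (127) were above endothelial-like cells (80.3) in that library.

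Different clusters held most squamous-like cells in different libraries. In the cluster led by Trp63, Krt17 and Col17a1, genes of basal squamous cells, Ifitm1 was 199 CPM in day 1 replicate 1, 51.2 in day 1 replicate 2 and 427 in day 6. In the cluster led by Ltf and with Krt13 and Krt4, keratins of suprabasal layers of moist epithelia, among its top genes, it was 329 CPM in day 1 replicate 2 and 1063 in day 6. In the cluster led by Dmkn, it was 262 CPM in day 1 replicate 1 and 829 in day 3. The late value was above the early one in each of these 3 clusters, though the early values came from few cells. These were 16 and 46 cells in the Trp63-led, 16 in the Ltf-led and 22 in the Dmkn-led cluster. In the Ltf-led and Dmkn-led clusters 1 early library stood against 1 late library. The other squamous-like clusters had enough cells for a level in a single library each: Ifitm1 was 60.4 CPM in the one led by U90926 and Krt17 (day 1 replicate 2) and 492 CPM in the one led by Calm4 and Krt10 (day 6). Neutrophil markers, 10 genes, summed to 57.6 to 342 CPM in squamous-like cells with the lowest sum in day 6, and to 7950 to 32428 CPM in neutrophil-like cells. Columnar markers summed to 2457 and 4076 CPM in squamous-like cells early and to 7571 and 4077 CPM late, and columnar-like cells held less Ifitm1 than squamous-like cells in each of the 4 libraries.

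**Figure D2:**
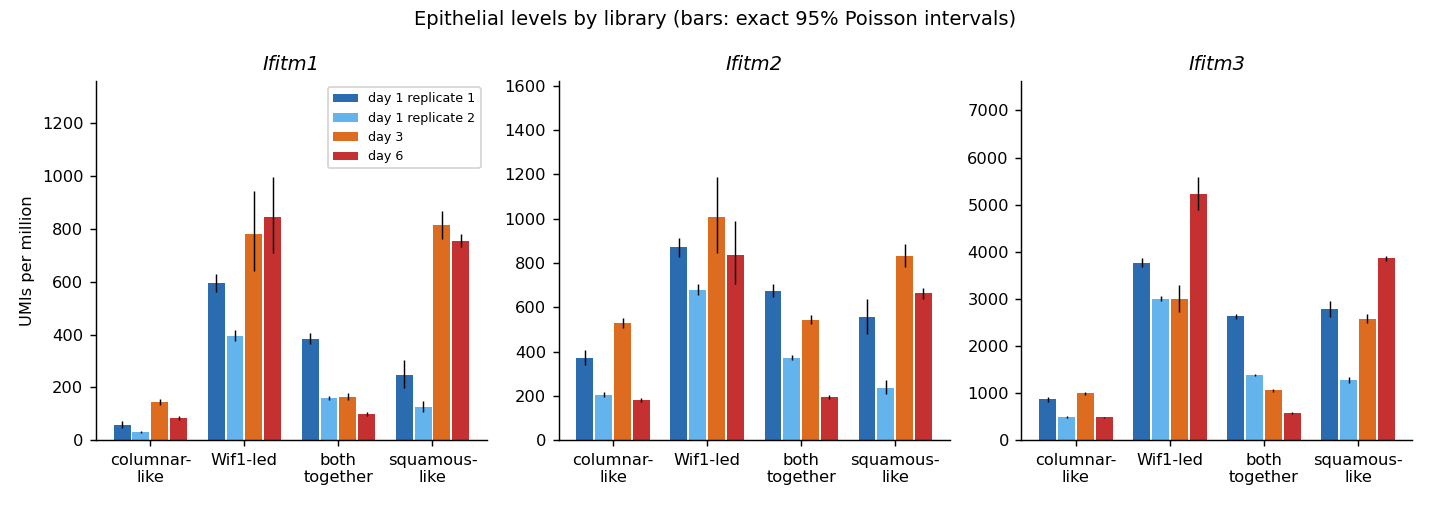
Level of each gene (CPM, linear axis from 0) in columnar-like cells, in the Wif1-led cluster, in both together and in squamous-like cells, with 1 bar per treated library and exact 95% Poisson intervals. Ifitm1 in both together runs from 384 CPM in day 1 replicate 1 to 99.1 CPM in day 6, while each of the parts is higher in the late libraries.

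In columnar cells the direction of the Ifitm1 difference turned on a single cluster. This cluster of 535 cells was led by Mt4 and Spock2 and had Wif1, Nkd1 and Dkk2 among its top 10 genes, of which Wif1, Nkd1 and Dkk2 encode feedback inhibitors of WNT signaling. It expressed the epithelial genes Cdh1 (521 to 924 CPM) and Krt8 (1300 to 2047 CPM). It stayed unnamed because its top 10 genes held no columnar marker and 1 marker of Paneth cells, Pnliprp2. Its summed columnar markers were 4641 to 6404 CPM, against 12162 to 19487 CPM in the treated columnar-like cells. Its WNT target genes summed to 4708 to 5752 CPM, against 529 to 2277 CPM in columnar-like cells. It held 151, 345, 24 and 15 cells of the treated libraries in that order, or 54.5% (exact binomial interval 48.4 to 60.5), 28.0% (25.5 to 30.6), 2.67% (1.72 to 3.95) and 1.10% (0.619 to 1.81) of its cells and the columnar-like cells together. Its median depth was 9222 UMIs per cell, 2.76 times that of its libraries.

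The Wif1-led cluster was rich in all 3 genes. Ifitm1 was 594, 396, 781 and 843 CPM, Ifitm2 was 871, 681, 1006 and 837 CPM, and Ifitm3 was 3774, 3005, 3003 and 5226 CPM over the treated libraries. Late Ifitm1 levels were above the early ones, though they came from 24 and 15 cells, with 23.1 and 23.6% of the UMIs from 1 cell. Its median Ifitm3 level was the highest of all treated types.

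Columnar-like cells without that cluster held little Ifitm1, at 59.6, 31.8, 145 and 84.4 CPM. The lowest level of any type in the same libraries was 59.3, 31.8, 103 and 71.8 CPM. Of these, 59.3 CPM came from 8 UMIs (exact Poisson interval 25.6 to 117) in 11 enteroendocrine-like cells. In endothelial-like cells, 103 CPM came from 34 UMIs (71.0 to 143) and 71.8 CPM from 4 UMIs (19.6 to 184). In day 1 replicate 2 that lowest type was the columnar-like cells themselves, and in day 3 their 145 CPM stood above the 103 CPM of endothelial-like cells, so how much of these levels free RNA gave was not tested. The log2 difference was 1.62 (SD 0.60, n = 4), and both late libraries lay above both early ones, as did 18.4% of the 12818 genes tested. After thinning, 9.52, 3.49, 16.2 and 13.0% of these cells had an Ifitm1 UMI, beside 38.1, 17.998, 39.1 and 34.9% before it, which is near the endothelial-like shares given above. Ifitm2 was 373, 206, 530 and 182 CPM and Ifitm3 872, 500, 996 and 492 CPM, with early and late overlapping for both.

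With the Wif1-led cluster counted as columnar the pattern turned round. Ifitm1 was then 384 and 160 CPM early and 165 and 99.1 CPM late, a log2 difference of -0.54 (SD 0.72, n = 4) with -0.89 within the single index pair and -0.19 within the dual index pair. The groups overlapped, since day 3 was above day 1 replicate 2, while 26.3% of the 13512 genes tested lay lower in both late libraries than in both early ones and 24.3% higher. Ifitm3 went from 2634 and 1381 CPM to 1060 and 584 CPM, a log2 difference of -0.86 (SD 0.62, n = 4). The cluster supplied 93.9 and 87.1% of the Ifitm1 UMIs of the combined cells early, and 15.1 and 16.5% late. The late libraries thus held a smaller share of Wif1-led cells, while the level of Ifitm1 within that cluster was not lower there. The naming itself was not stable: at a clustering resolution of 2, clusters named columnar-like took 129 of its 151, 242 of 345, 23 of 24 and 11 of 15 cells, and the columnar-like levels of Ifitm1 were 260, 69.0, 159 and 91.5 CPM.

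Fibroblast-like cells, led by Col1a1, Mmp10 and Mmp13, held Ifitm1 at 509 CPM (14 cells), 366 CPM (39 cells), 689 CPM (30 cells) and 1204 CPM (56 cells) from day 1 replicate 1 to day 6. Both late libraries were above both early ones, as were 18% of the 3333 genes tested, while 21.7% of those genes lay below, and the log2 difference was 1.14 (SD 0.45, n = 4). In day 1 replicate 2, 43.7% of the Ifitm1 UMIs came from 1 cell. Fibroblast markers in these cells summed to 40115, 20104, 11138 and 27023 CPM, with the lowest sum in day 3. Squamous markers summed to 2117, 934, 7058 and 5003 CPM in the same order, and the part of foreign RNA in these Ifitm1 levels was not tested. Ifitm2 was 509 and 316 CPM early and 800 and 562 CPM late, and Ifitm3 was 1567 and 1006 CPM early and 1498 and 2322 CPM late, so that day 3 lay below day 1 replicate 1 for Ifitm3 before TMM scaling. Macrophage-like cells showed log2 differences of 0.92 (SD 0.89, n = 3) for Ifitm1, 0.09 (SD 0.46, n = 3) for Ifitm2 and -0.12 (SD 0.33, n = 3) for Ifitm3, from a single late library. In macrophage-like cells 35% of the 9035 genes tested were above both early libraries.

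The untreated normal library showed the family mainly in stroma. Telocyte-like cells, subepithelial cells that express Foxl1 and Wnt5a, held 1146 CPM of Ifitm1 (exact Poisson interval 1020 to 1284), 722 of Ifitm2 and 799 of Ifitm3. Fibroblast-like cells held 805 CPM (742 to 871) of Ifitm1, 443 of Ifitm2 and 876 of Ifitm3, and pericyte-like cells 505, 267 and 653 CPM. Myofibroblast-like cells, which share contractile genes with pericytes, held only 58.3 CPM of Ifitm1 (30.1 to 102), with 384 of Ifitm2 and 568 of Ifitm3. With 1 library these intervals cover counting error only, and no test between animals was possible.

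**Figure D3:**
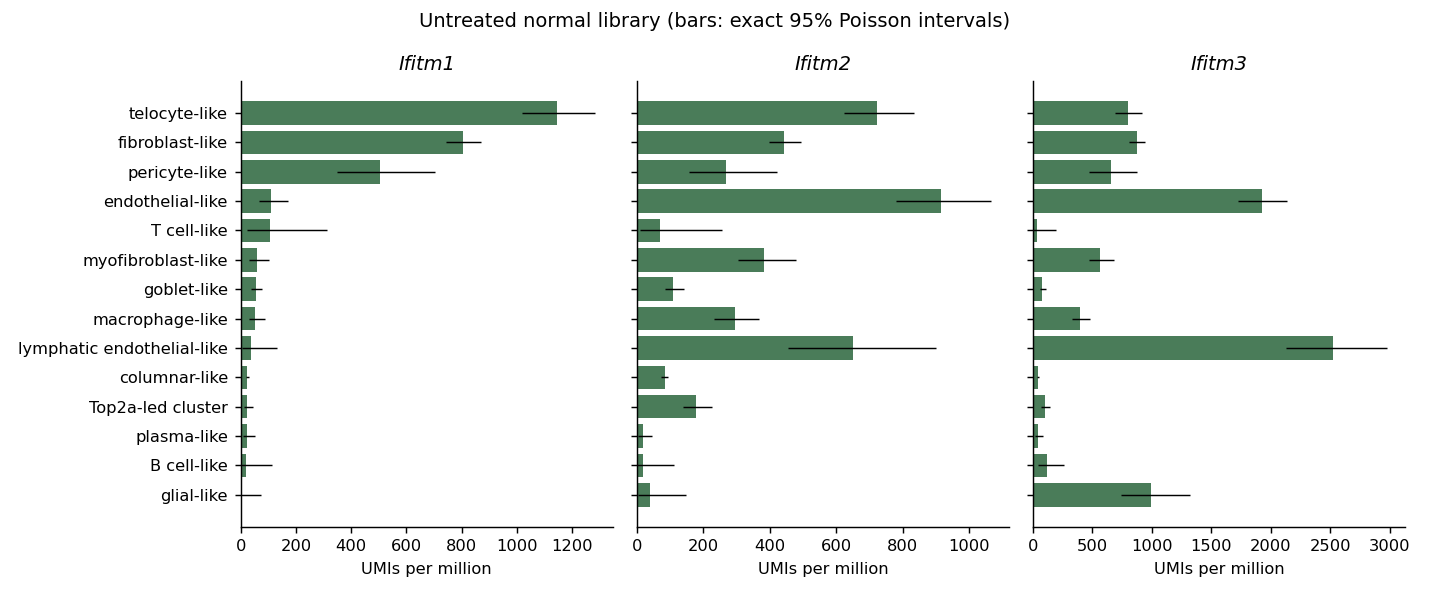
Level of each gene (CPM, linear axis from 0) by cell type in the untreated normal library. Bars are values of 1 library and lines are exact 95% Poisson intervals. Ifitm1 peaks in telocyte-like cells at 1146 CPM, Ifitm2 in endothelial-like cells at 915 CPM and Ifitm3 in lymphatic endothelial-like cells at 2525 CPM.

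Normal fibroblasts were not uniform. Ifitm1 was 981 CPM in the cluster led by the elastin gene Eln (118 cells) and 902 CPM in the one led by Igfbp3 (106 cells), but 89.0 CPM in the one led by Cilp, with Pi16 among its top genes (40 cells). Ifitm2 was 407, 497 and 497 CPM and Ifitm3 928, 830 and 757 CPM in the same 3 clusters, so the gap was seen in Ifitm1 alone of the 3 genes. Glial-like cells held Ifitm3 at 997 CPM and no Ifitm1 UMI among 18 cells, for which the upper limit was 75.0 CPM. Of their Ifitm3 UMIs 46.9% came from 1 cell, and macrophage markers summed to 11593 CPM in them. Endothelial-like cells repeated the tumor order, with 112 CPM of Ifitm1, 915 of Ifitm2 and 1925 of Ifitm3.

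Normal epithelium was poor in all 3 genes. The 300 columnar-like cells held 23.8 CPM of Ifitm1 (18.3 to 30.3), 83.7 of Ifitm2 (73.2 to 95.3) and 43.5 of Ifitm3 (36.0 to 52.1), and goblet-like cells 55.0, 110 and 80.6 CPM. Treated columnar-like cells held 11.3 to 22.9 times as much Ifitm3 and 2.17 to 6.33 times as much Ifitm2. The normal library came from another dissociation and tissue, which cannot be told apart from the tumor or the treatment here. The lowest Ifitm3 level of any type differed as well, at 35.7 CPM in the normal library and 295 to 890 CPM in the treated ones. The part of free RNA in these levels was not tested. Macrophage-like cells held 52.9 CPM of Ifitm1 in the normal library and 240 to 689 CPM in the treated ones.

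The interferon pathway itself was followed with lists of genes. Of 43 interferon-response genes, 33 could be tested in columnar-like, 19 in squamous-like, 1 in fibroblast-like, 9 in neutrophil-like and 34 in macrophage-like cells, by edgeR's quasi-likelihood test with Benjamini-Hochberg adjustment over all genes. In the first 4 types 0 passed an adjusted p of 0.05, as did 0% of all genes tested, of which 745, 393, 269 and 155 had an unadjusted p under 0.05 and DESeq2 called 45, 21, 11 and 6. At an unadjusted p under 0.05, 16, 7, 1 and 1 of them were higher late and 0 lower, and DESeq2 called 4, 0, 0 and 0. The median log2 change of the list was 2.70 in columnar-like and 1.20 in squamous-like cells, against 0.03 over all genes in both. In neutrophil-like cells it was 0.14, against 0.05 over all genes. Both late libraries lay above both early ones for 12 of the 33 genes in columnar-like cells (18.4% of all genes). In squamous-like cells this held for 11 of 19 (16.3% of all genes). The columnar-like sum of the list was 817 and 710 CPM early, 803 CPM in day 3 and 4887 CPM in day 6. In macrophage-like cells, where 1.52% of all genes passed (0.908% higher and 0.609% lower late), 10 of 34 were higher late and 0 lower. Among them were Irf1, Gbp2, Gbp3, Lgals3bp, Ifi47, Igtp, Iigp1, Psmb9 and Tap1, most of them known targets of interferon gamma. DESeq2 called 2 of the 34.

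In the macrophage-like cells the 2 largest of these changes among genes detected early were in the GTPase genes Gbp2 and Igtp. Gbp2 was 34.4 and 46.4 TMM-scaled CPM early and 579 CPM in day 6 (log2 change 3.78, edgeR adjusted p = 1.49e-06), and Igtp 9.82 and 8.19 CPM early and 114 CPM in day 6 (log2 change 3.68, edgeR adjusted p = 0.000179). Iigp1 had no UMI early and 124 CPM in day 6. Of 15 interferon ligands, receptors and their regulators 9 were tested, and 1 passed by edgeR and 0 by DESeq2. It was Socs1, a feedback inhibitor of cytokine receptors, with 9.82 and 9.56 CPM early and 72.6 CPM in day 6 (log2 change 2.88, edgeR adjusted p = 0.0132). These calls rest on 1 late library. Since the late group held 1 library, the filter on low counts asked for a sufficient level in 1 library only. Iigp1, Igtp and Socs1 could thus enter the test through day 6 alone, where they were high. In the same cells the WNT target genes Nkd1, Notum, Rnf43, Lgr5, Prox1 and Sox9, all known from intestinal epithelium, were lower in day 6. Of 12 such genes tested, 0 had a positive log2 change, and the median was -2.90. Nkd1 (0 CPM), Notum (1.65), Rnf43 (3.30), Lgr5 (3.30) and Prox1 (6.60) were scarce in day 6. They could thus enter the test only through the early libraries, where they were high, and their changes are a description. Lgr5, the stem cell receptor, was 44.2 and 50.5 CPM early and 3.30 CPM in day 6 (log2 change -3.77). The Wif1-led cluster held 580 and 467 CPM of Lgr5 in the day 1 libraries. Columnar markers summed to 3011 and 3693 CPM early and 4499 CPM in day 6 in the macrophage-like cells. The part of free epithelial RNA in these changes was not tested.

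Within each type measured in day 6 and in other treated libraries, the interferon-response list had its highest sum in day 6. The normal library was not low throughout, with 4682 CPM of the list in endothelial-like and 2768 CPM in macrophage-like cells. The list summed to 489 and 415 CPM early, 668 CPM in day 3 and 1762 CPM in day 6 in squamous-like cells, whereas Ifitm1 was already at 814 CPM in day 3. In columnar-like cells the list was at 817, 710, 803 and 4887 CPM, and Ifitm1, Ifitm2 and Ifitm3 in day 6 were at 84.4, 182 and 492 CPM, with Ifitm2 and Ifitm3 at their lowest summed CPM among the treated libraries. That place depended on the scale: with TMM scaling day 6 was above day 1 replicate 2, by 0.21 for Ifitm2 and 0.36 for Ifitm3 on the log2 scale. Neutrophil-like cells had both at their highest in day 6, with 5653 CPM of the list and 3495 CPM of Ifitm1. Fibroblast-like cells had 3218 CPM of the list and 1204 CPM of Ifitm1 in day 6, and at most 753 and 689 CPM in the other libraries.

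**Figure D4:**
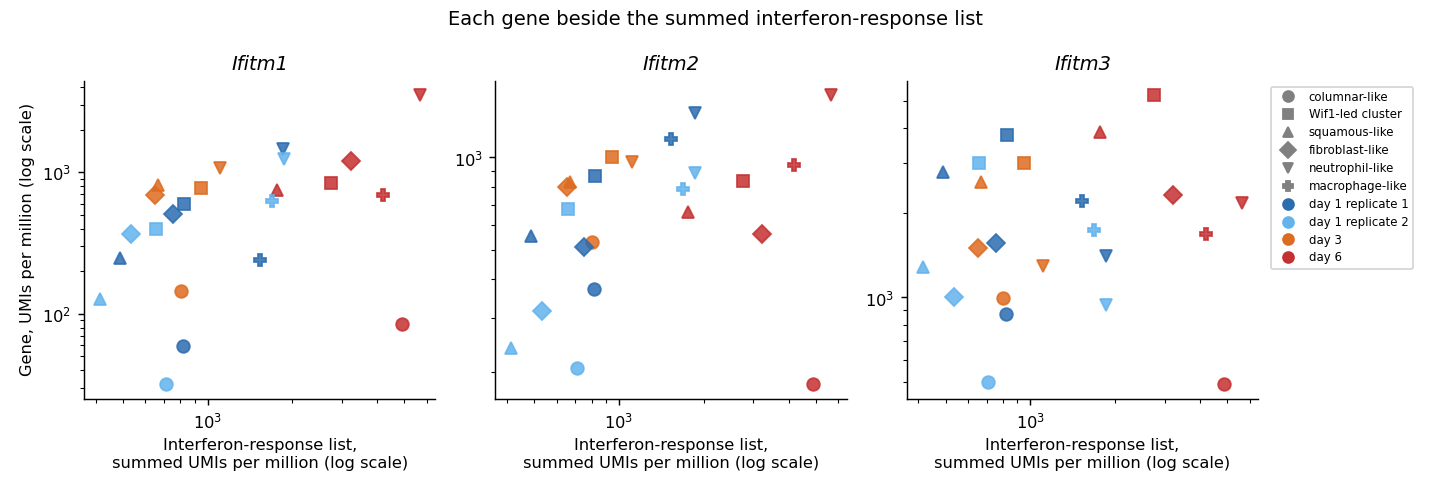
Level of each gene (CPM, log axis) against the summed level of 43 interferon-response genes (CPM, log axis). Symbols are cell types and colors are treated libraries. The red day 6 points lie to the right of the other libraries of the same type, and the columnar-like day 6 circle, at 4887 CPM of the list, is among the lowest for Ifitm2 and Ifitm3 on this scale, though above day 1 replicate 2 after TMM scaling.

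Of 10 genes known to act on or bind IFITM proteins, 8 were tested in columnar-like, 8 in squamous-like, 7 in fibroblast-like, 5 in neutrophil-like and 8 in macrophage-like cells, and 0 passed by edgeR or by DESeq2. In the first 4 types 0 of these genes had an unadjusted p under 0.05. In macrophage-like cells Nedd4, an E3 ligase of IFITM3, had the lowest log2 change of the 8, at -1.16, from a single late library. The tetraspanin genes Cd9 and Cd81 and the ATPase gene Vcp were the most abundant of the listed genes in columnar-like cells. Cd9 was 978 and 1124 TMM-scaled CPM early and 1462 and 1865 CPM late in these cells (log2 change 0.66, edgeR adjusted p = 0.8004). Cd81 was 745 and 562 CPM early and 1456 and 394 CPM late (log2 change 0.50, edgeR adjusted p = 0.879), and Vcp 438 and 403 CPM early and 641 and 347 CPM late (log2 change 0.23, edgeR adjusted p = 0.923). In squamous-like cells Cd44, a hyaluronan receptor and WNT target, was 698 and 1373 CPM early and 523 and 541 CPM late (log2 change -0.96, edgeR adjusted p = 0.999). Cd9 had a log2 change of 0.09 and Cd81 of 0.24 there. In fibroblast-like cells Cd9, Cd44 and Vcp had log2 changes of -0.26, -0.88 and 0.40, and in neutrophil-like cells Cd44, Cd9 and Socs3, a feedback inhibitor of cytokine signaling, of -0.85, 0.30 and 1.06, none past the threshold.

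Outside macrophage-like cells, WNT target genes gave 0 calls by edgeR, and in squamous-like cells 2 of 14 were lower at an unadjusted p under 0.05. Over all 9773 genes tested in squamous-like cells, 393 had such a p in either direction. In columnar-like cells 2 of 15 had a positive log2 change, with a median of -0.67, and 1 was lower at an unadjusted p under 0.05. Of all 12818 genes tested in columnar-like cells, 745 had such a p in either direction, so 1 of 15 is near the share of all genes. With the Wif1-led cluster counted the median was -1.85, 7 of 15 were lower at an unadjusted p under 0.05, and DESeq2 called 4 of them lower. Over all 13512 genes of the combined cells, 2268 had an unadjusted p under 0.05 and DESeq2 called 668.

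Over 34 units of 1 named type in 1 treated library (13 types), the pattern of Ifitm2 was closest to that of Ifitm3 among 4191 genes, with a Pearson r of 0.83 on log2(CPM + 20). Next to Ifitm2 came Tnfrsf1a (r = 0.82), Sec14l1 (r = 0.81), Tle3 (r = 0.80) and Gnai2 (r = 0.80), and next to Ifitm3 after Ifitm2 came Dhrs3 (r = 0.79), Rbms2 (r = 0.70), Nxn (r = 0.70) and Mt2 (r = 0.70). Ifitm1 was closest to Tnfaip2 (r = 0.82), Cnn2 (r = 0.81), Emilin2 (r = 0.80), Lmo4 (r = 0.79) and Zyx (r = 0.78), and its r was 0.60 with Ifitm2 and 0.45 with Ifitm3. These values are descriptions, since units of 1 library share its depth and free RNA.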

How the data were processed

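The authors deposited UMI counts, 1 matrix of cells by genes per library, made with dropEst from reads aligned to GRCm38 and not normalized. The members and gene lists were chosen with earlier results of these data known, and the cluster naming rule was set after clusters had been seen. Counts were scaled to 10000 per cell, log-transformed, and 20 principal components of 2000 variable genes (without the reported lists) were clustered by Leiden at resolution 1 with seed 1 (scanpy 1.11.5, leidenalg 0.10.2). No doublets were removed: Scrublet called 12 of 7396 treated cells, too few to have worked. Levels are counts per 1000000 UMIs of a type in a library (CPM), with exact Poisson intervals that cover counting error only. Late and early libraries were compared with edgeR 4.0.16 on counts summed over at least 10 cells (TMM, filterByExpr, quasi-likelihood, Benjamini-Hochberg, threshold 0.05); DESeq2 1.42.0 was an alternative. Early and late libraries are separate samples with n = 2 each, so an exact permutation test cannot go below p = 0.333. On simulated counts with a fixed dispersion of 0.05, edgeR called 93 of 99 genes with a log2 change of 2 in columnar-like cells. It called 80 of 96 in squamous-like, 75 of 94 in fibroblast-like, 57 of 95 in neutrophil-like and 54 of 100 in macrophage-like cells. With a log2 change of 1 it called 25 of 99, 18 of 100, 17 of 91, 8 of 90 and 6 of 97 in the same order of types. The dispersion was not estimated from these libraries. Text names members in each type, list genes past the threshold (at most 10, or else the 3 most abundant) and the 5 genes most alike. Identity of the proteins was not analysed here. The SD of a log2 difference is pooled over both groups. In the normal library 1 cluster led by Top2a stayed unnamed. The values of 1 listed gene are not reported here.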

Additional observations from a re-analysis of the deposited data

Results flagged for a closer look

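After TMM scaling, Ifitm1 and Ifitm3 differed in direction between cell types within both index types, which was not tested. With the Wif1-led cluster counted as columnar, the late minus early log2 difference was -0.54 for Ifitm1 and -0.86 for Ifitm3, lower late within the single and within the dual index pair. In squamous-like cells it was 2.28 for Ifitm1 and 0.89 for Ifitm3, and in fibroblast-like cells 1.14 and 0.65, higher late within both pairs. For Ifitm3 the single index pair gave only 0.14 and 0.04, and before TMM scaling day 3 lay below day 1 replicate 1 in both types, so that direction turns with the scale. Without that cluster the columnar-like difference of Ifitm1 was 1.62, in the same direction as in squamous-like cells.

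The Wif1-led cluster lies outside the comparisons between named types. Its lowest levels over the 4 libraries were 396 CPM of Ifitm1, 681 CPM of Ifitm2 and 3003 CPM of Ifitm3, above the 23.8, 83.7 and 43.5 CPM of normal columnar-like cells, which came from another preparation.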

How the results depend on the processing

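The Ifitm1 difference in columnar-like cells (1.62) was 0.23 at resolution 2 and -0.54 with the Wif1-led cluster counted, an alternative chosen after seeing the data; leaving out single libraries gave 1.12 to 2.15, and in squamous-like cells (2.28) 1.86 to 2.71. Counts of genes called depended on the tool. In columnar-like cells (0) DESeq2 called 45, no filter on low counts 232, and leaving out 1 library 0 to 661 (661 without day 3, 37 without day 6). In squamous-like cells (0) the same gave 21, 106 and 10 to 40, and 60 with library structure as a block. In fibroblast-like cells (0) they gave 11, 44 and 3 to 175. In neutrophil-like cells (0) they gave 6, 11 and 0 to 158, with 6 under the block and 1 at resolution 2. In macrophage-like cells (137) DESeq2 called 21; no block could be fitted and no library left out with a test, since 3 libraries remain. The cause was not tested. Of the 15 differences of the 3 genes in 5 types, 14 were positive, and 14 with DESeq2, 13 with no filter, 12 at resolution 2, 14 at resolution 0.5 and 14 without the highest Scrublet scores. With the Wif1-led cluster counted as columnar, the columnar differences were -0.54 for Ifitm1, -0.21 for Ifitm2 and -0.86 for Ifitm3. The types come from the same treated libraries, so these signs are not independent. Levels at resolution 2 stayed within the main interval in 144 of 159 cases, at resolution 0.5 in 143 of 150, without the highest 6% of Scrublet scores in 142 of 159, and with each cell scaled to the same total in 121 of 162. The median share of cells with a UMI was 34.6% thinned and 70.7% unthinned. The block paired libraries by index type, since the late libraries carry no replicate numbers to pair with those of day 1. Depth limits low levels: a type with few cells could not show Ifitm1 below the free RNA of its library.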
